A study of Mus musculus with 9 samples.

Results

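Sox2 binding was examined at 8 genes for transcription factors of squamous epithelium, namely Prdm1, Grhl1, Grhl3, Sox15, Pitx1, Pax9, Tfap2a and Bcl11a, out of 21887 protein-coding genes of the annotation. The genes were taken from a fixed list of names, written with earlier results of these data known. A gene was counted when the summit of a Sox2 ChIP region lay inside its RefSeq span or within 50 kb of it. Summits up to 250 kb away whose nearest protein-coding gene was a listed one were described as well. The data are Sox2 chromatin immunoprecipitation and sequencing (ChIP-seq) of mouse lung epithelial cells, C57BL/6 and 8 weeks of age per the labels. The cells carried ectopic Sox2 together with deletion of Nkx2-1, carried ectopic Sox2 with Nkx2-1 intact, or were wildtype. The sources used here do not say how Sox2 was expressed, how Nkx2-1 was deleted or how the cells were grown. With 1 Sox2 ChIP library per condition, differences between conditions could not be checked against replicates, and none carries a p-value.

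A summit is the position of highest enrichment within a called region. The lists held 2589 summits for ectopic Sox2 with Nkx2-1 deletion, 229 for ectopic Sox2 and 552 for wildtype. Mean ChIP coverage, recovered from the listed folds and p-values, was 1.45, 0.764 and 0.963 fragments per position in that order, a depth ratio of 1.90 for the Nkx2-1 deleted over the ectopic Sox2 library and of 1.51 over the wildtype one. The median summit rested on 38 fragments with Nkx2-1 deletion and on 24 in each of the ectopic Sox2 and wildtype lists. Peak lists carry no expression value, so neither the level of Sox2, nor the loss of Nkx2-1, nor the labelled cell type could be checked against marker expression. Intervals are exact 95% intervals and cover counting error only.

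Stratified squamous epithelium is built from basal cells that express Trp63, in the oesophagus together with Sox2. Its layers are set by factors that switch on late differentiation and barrier genes. Prdm1 encodes Blimp1, a repressor with zinc fingers that acts in terminal differentiation of epidermis and of plasma cells. Grhl1 and Grhl3 encode grainyhead-like factors that drive desmosome and barrier genes. Sox15 is a Sox family factor studied in muscle progenitors and squamous epithelia, Tfap2a an AP-2 factor of epidermis and neural crest, Pax9 a paired-box factor of the pharynx and oesophagus, and Pitx1 a homeobox factor of the hindlimb and oral epithelium. Bcl11a encodes a zinc-finger repressor of blood cells that has been studied as an oncogene in squamous lung cancer. Nkx2-1 sets lung identity, and Sox2 marks the proximal airway and the oesophagus.

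With Nkx2-1 deletion, 3 of the 8 genes had a Sox2 summit within 50 kb: Prdm1 with 3 summits, Grhl1 with 1 and Sox15 with 1. With summits below a −log10 q of 5 removed, the count was 1, Prdm1, beside 8.83% of all genes. None of the 8 had one in the ectopic Sox2 list, and none had one in wildtype. The share with Nkx2-1 deletion was 37.5% (interval 8.52 to 75.5), beside 13.1% of all protein-coding genes in the same list. The same background share was 1.53% in the ectopic Sox2 list and 2.85% in wildtype, so 0 of 8 (interval 0 to 36.9%) is the usual outcome for 8 genes there. The interval with Nkx2-1 deletion includes the background share. Prdm1 was the only one of the 8 that was itself the nearest protein-coding gene to a summit within 250 kb, in any list. By that rule 8.11% of all genes were nearest to a summit with Nkx2-1 deletion, against 0.923% in the ectopic Sox2 list and 1.96% in wildtype.

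**Figure D1:**
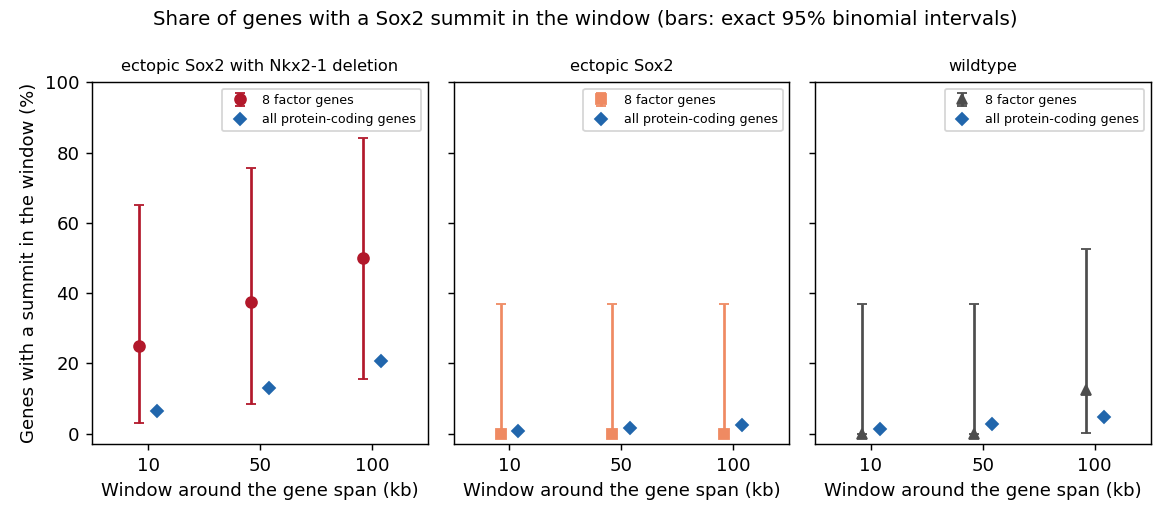
Share of genes with a Sox2 summit within 10, 50 or 100 kb of the gene span, in percent, for the 8 factor genes (circles, squares or triangles, with exact 95% binomial intervals) and for all protein-coding genes (diamonds), with 1 panel per library. With Nkx2-1 deletion the 8 genes had 25%, 37.5% and 50% and all genes 6.47%, 13.1% and 20.7%; the ectopic Sox2 panel holds no gene of the 8 at any window (all genes 0.736%, 1.53% and 2.45%), and the wildtype panel holds 1, Pax9, at 100 kb (all genes 1.37%, 2.85% and 4.66%).

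At 2 of the summits near these genes a gene's promoter lies under the called region, so its sequence can be shown. The windows below, from RefSeq on GRCm38.p6 (the same build as mm10), run from 250 bases before to 50 bases after a listed transcription start, 5′ to 3′ on the gene's strand. The region 9.07 kb from the Prdm1 span covered the whole window of Gm35028, a lncRNA gene, at chr10:44427939-44428238 on the minus strand, with its summit at base 131, 120 bp upstream of that start. The region near Sox15 lay wholly inside the window of Cd68, a macrophage glycoprotein gene, at chr11:69666121-69666420 on the minus strand, with its summit at base 117, 134 bp upstream of that start. Capitals mark matches on either strand to AACAAT, to its shifted form ACAATG, which can overlap it, and to the motif ACAAAG, letters that are found in binding sites of Sox factors.
Gm35028: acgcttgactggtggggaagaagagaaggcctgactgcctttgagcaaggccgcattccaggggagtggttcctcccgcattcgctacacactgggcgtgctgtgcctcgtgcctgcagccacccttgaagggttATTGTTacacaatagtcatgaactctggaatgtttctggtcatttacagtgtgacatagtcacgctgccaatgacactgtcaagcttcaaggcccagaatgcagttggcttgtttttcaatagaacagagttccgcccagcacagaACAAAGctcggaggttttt
Cd68: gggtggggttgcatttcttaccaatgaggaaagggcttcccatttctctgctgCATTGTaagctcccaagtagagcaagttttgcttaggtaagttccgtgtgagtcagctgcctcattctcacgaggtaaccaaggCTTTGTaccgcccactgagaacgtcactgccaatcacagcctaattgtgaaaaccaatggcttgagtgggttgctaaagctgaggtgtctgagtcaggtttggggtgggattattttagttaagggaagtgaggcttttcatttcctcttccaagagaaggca

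In the Gm35028 window the AACAAT match, on the strand opposite to the gene, began 5 bases past the summit, and the ACAAAG match began 151 bases past it. In the Cd68 window the ACAATG match began 63 bases before the summit and the ACAAAG match 21 bases past it, both on the strand opposite to the gene. At least 1 of the 3 motifs occurs in 33.2% of all 32851 listed promoter windows of this length. AACAAT occurs in 10.7% of them, ACAATG in 12.6% and ACAAAG in 18.7%. A match is a description of the letters and not a bound site. Of the 8 genes, 7 have a promoter in the table, in 9 windows, and none of these windows lay under a Sox2 region. A motif was found in the Sox15 window (ACAAAG) and in the Pax9 window (ACAATG), and in none of the other windows.

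Prdm1 had the most summits within 50 kb of the 8 genes and, through a nearest-gene summit at 188 kb, the one with the most fragments; within 100 kb the summit of highest fold and −log10 q was the one near Pax9 described further on. The gene spans 44437174 to 44528558 on chromosome 10, and its RefSeq models include 1 curated and 5 predicted transcripts. With Nkx2-1 deletion the 3 summits within 50 kb lay outside the span. The summit under the Gm35028 promoter (chr10:44427917-44428262) had 64 fragments (interval 49.3 to 81.7), a fold of 5.62 and a −log10 q of 9.66, and lay past the 3′ end of Prdm1, 9.07 kb from the span. On the other side, the summit at chr10:44550996-44551298, 22.6 kb from the span, had 32 fragments (21.9 to 45.2) with a fold of 4.85 and a −log10 q of 3.75. The summit at chr10:44565168-44565416, 36.7 kb from the span, had 42 fragments (30.3 to 56.8) with a fold of 8.54 and a −log10 q of 10.2. Fold and −log10 q are the values that the authors' peak caller gave each summit within its list. The 36.7 kb summit thus had fewer fragments than the Gm35028 summit but a higher fold, over a control background of 2.83 fragments against 9.45.

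Prdm1 was also the nearest protein-coding gene to 2 further summits, 450 bp apart in neighbouring regions 188 and 189 kb from its span. When lncRNA and other genes could be the nearest, Prdm1 kept only 1 of its 5 nearest-gene summits. The one at chr10:44716627-44717042 had 121 fragments (100.4 to 145), a fold of 17.4 and a −log10 q of 43.7, which ranked 1 by q and 2 by fold among the 2589 summits of the list. Its neighbour at chr10:44717102-44717351 had 45 fragments (32.8 to 60.2), a fold of 5.01 and a −log10 q of 5.97, rank 1290 by q. No protein-coding gene lay within 50 kb of either. The gap from Prdm1 to the next protein-coding gene on that side, Prep, is 539 kb wide, and a wide gap gives a gene more room to be the nearest. A sixth summit, 99.6 kb from the span on the other side, lay within the autophagy gene Atg5 and had 20 fragments (12.2 to 30.9).

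Distances to Prdm1 depend on which end of the gene is used. The promoter table lists 1 transcription start for Prdm1, at 44458748 on the minus strand, well inside the RefSeq span. From that start the Gm35028 summit lay 30.6 kb downstream and the Atg5 summit 121 kb downstream, and the other 4 lay 92.4, 107, 258 and 259 kb upstream. Counted within 50 kb of the listed start, Prdm1 had 1 summit; by that count 3 of the 7 genes with a listed start had a summit, beside 9.68% of all protein-coding genes that have a listed start.

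In the other libraries the Prdm1 neighbourhood held no listed summit within 250 kb. That is the usual case there, as the all-gene median distance was 4264 kb with ectopic Sox2 and 1853 kb in wildtype. The nearest ectopic Sox2 summit was 6885 kb from Prdm1, and the nearest wildtype summit 856 kb. No region near Prdm1, Grhl1 or Sox15 in the Nkx2-1 deleted list overlapped a region of either other list. Those lists held 229 and 552 summits against 2589, so most regions of the Nkx2-1 deleted list have no counterpart in them. The Nkx2-1 deleted library is also the deepest of the 3. The 7 summits within 50 kb of, or nearest to, these genes were scaled to the other depths at equal enrichment. At ectopic Sox2 depth their Poisson −log10 p was 6.03 to 42.0, beside a lowest listed value of 5.47. At wildtype depth it was 8.41 to 61.0, beside a lowest listed value of 5.27. The Atg5 summit gave 4.71 and 6.37 in that order. Equal enrichment is an assumption of this scaling. Over 62 regions found in all 3 lists, the median depth-scaled fragment ratio of the Nkx2-1 deleted library was 1.32 over ectopic Sox2 and 1.25 over wildtype. The scaled values above do not include this difference and would be lower with it. The parts of depth and of enrichment in these absences were not tested.

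**Figure D2:**
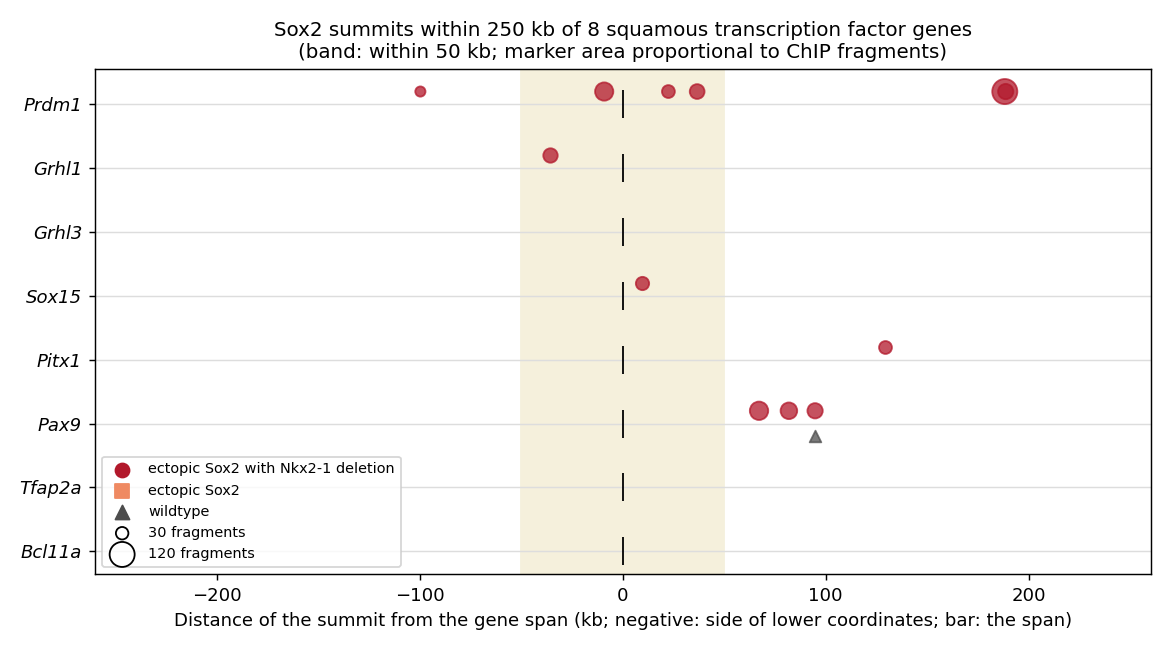
Position of every listed Sox2 summit within 250 kb of the 8 genes, as signed distance from the gene span in kb, with marker area proportional to ChIP fragments and the 50 kb window shaded. Summits of ectopic Sox2 with Nkx2-1 deletion (circles) lie near Prdm1, Grhl1, Sox15, Pitx1 and Pax9, wildtype has 1 (triangle) near Pax9, and ectopic Sox2 (squares) has none.

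Among all protein-coding genes, 159 (0.726%) had at least 3 summits within 50 kb with Nkx2-1 deletion, and Prdm1 was 1 of them. Prdm1 was picked for this ranking because it had the most summits of the 8. Its span of 91.4 kb, against a median of 17.2 kb for protein-coding genes, also widens its window. By nearest gene within 250 kb, Prdm1 had 5 summits, and 24 genes (0.110%) had at least as many. A further 86 protein-coding genes had the same counts as Prdm1 in the 3 lists, that is 3 with Nkx2-1 deletion and 0 in both others. Ordered by the largest −log10 q, the leading 3 were Cntnap2, a neurexin-family gene, at 26.6, Crybg1, which lies on the same chromosome as Prdm1, at 20.6, and Antxr1, an anthrax toxin receptor gene, at 17.5. This likeness rests on 3 libraries and on counts only.

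At the grainyhead-like genes, Grhl1 and Grhl3 differed. Grhl1 spans 24572232 to 24617391 on chromosome 12, and with Nkx2-1 deletion it had 1 summit, 35.6 kb from the span at chr12:24536461-24536676. That summit had 40 fragments (28.6 to 54.5), a fold of 4.48 and a −log10 q of 3.86, rank 1974 of 2589 by q. It lay inside Taf1b, a gene for a subunit of the RNA polymerase I transcription machinery, so that Grhl1 was the second gene near it and not the nearest. The nearest ectopic Sox2 summit was 6450 kb from Grhl1 and the nearest wildtype summit 564 kb. Grhl3, at 135541887 to 135573632 on chromosome 4, had no summit within 250 kb in any list. Its nearest summit was 566 kb away with Nkx2-1 deletion, 303 kb with ectopic Sox2 and 3692 kb in wildtype. Grhl3 was the only one of the 8 genes whose nearest ectopic Sox2 summit was closer than its nearest summit in both other lists. The third family member, Grhl2, is not among the 8, and with Nkx2-1 deletion it had 2 summits within 50 kb, the stronger inside the gene with 39 fragments (27.7 to 53.3) and a −log10 q of 2.37.

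Sox15, a short gene of 1.69 kb at 69655037 to 69656727 on chromosome 11, had 1 summit with Nkx2-1 deletion, at chr11:69666127-69666375, 9.58 kb from the span. It had 34 fragments (23.5 to 47.5), a fold of 5.13 and a −log10 q of 4.49, rank 1711 of 2589. The locus is crowded: 11 protein-coding genes lay within 50 kb of this summit, among them Shbg, Fxr2, Cd68, Eif4a1 and Tnfsf12. The summit was 0.134 kb from Cd68, whose promoter sequence is shown above. The nearest summit of the ectopic Sox2 list and that of the wildtype list were both 3662 kb from Sox15, near Aspa, with 61 and 67 fragments.

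**Figure D3:**
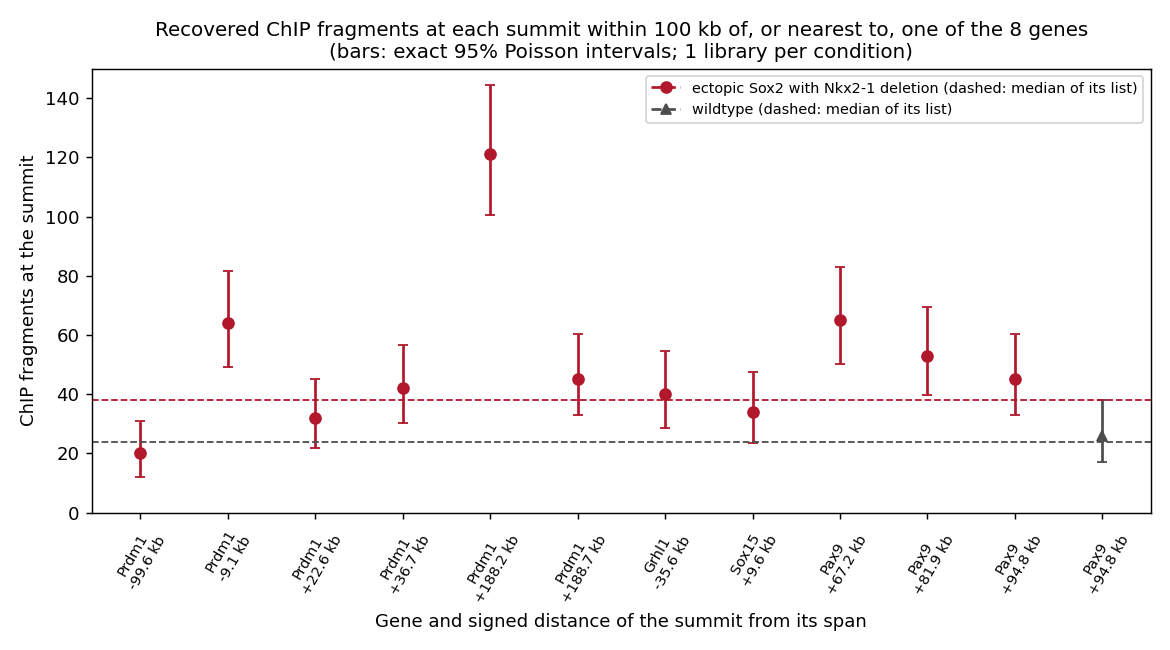
ChIP fragments recovered at each summit within 100 kb of one of the 8 genes, or nearest to one within 250 kb, with exact 95% Poisson intervals; the x axis gives the gene and the signed distance from its span, and dashed lines mark the median of each list. The Prdm1 summit at 188.2 kb, with 121 fragments, lies above all others, while those of Grhl1 (40) and Sox15 (34) lie near the list median of 38.

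Pax9 had no summit within 50 kb in any list, but a cluster lay just beyond. Pax9 spans 56691693 to 56712824 on chromosome 12, 155 kb from Nkx2-1, the gene deleted in the cells of the longest list. With Nkx2-1 deletion 3 summits lay 67.2, 81.9 and 94.8 kb past its 3′ end, all inside Slc25a21, a mitochondrial carrier gene whose span overlaps the end of Pax9. The closest, at chr12:56779789-56780276, had 65 fragments (50.2 to 82.8), a fold of 14.3 and a −log10 q of 23.8, rank 21 by q and 10 by fold. The next, at chr12:56794549-56794880, had 53 fragments (39.7 to 69.3), and the third, at chr12:56807478-56807766, had 45 (32.8 to 60.2).

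The third Slc25a21 region was the only region within 100 kb of any of the 8 genes that was found in more than 1 list. Wildtype had a summit there with 26 fragments (17.0 to 38.1), a fold of 7.79 and a −log10 q of 9.58, 15 bp from the summit of the Nkx2-1 deleted library. Scaled by depth, the ratio of the Nkx2-1 deleted to the wildtype library was 1.15 (interval 0.693 to 1.94), which includes 1. Scaled instead by the median of 62 regions found in all 3 lists, it was 0.916. The ectopic Sox2 list had no region there, and its nearest summit was 1069 kb from Pax9.

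The other genes had no summit within 100 kb in any list. Pitx1, at 55825044 to 55836190 on chromosome 13, had its nearest summit 129 kb away with Nkx2-1 deletion, with 32 fragments (21.9 to 45.2) and a −log10 q of 3.75, and that summit lay closer to the histone variant gene Macroh2a1. Its nearest ectopic Sox2 summit was 7252 kb away, and its nearest wildtype summit 3922 kb. Tfap2a, at 40713802 to 40738238 on chromosome 13, had its nearest summit 576 kb away with Nkx2-1 deletion, 9386 kb with ectopic Sox2 and 257 kb in wildtype. Bcl11a, at 24076564 to 24173558 on chromosome 11, had its nearest summit 344 kb away with Nkx2-1 deletion, 16282 kb with ectopic Sox2 and 2790 kb in wildtype. Bcl11a has the longest span of the 8, 97.0 kb, against 17.2 kb for the median protein-coding gene. Grhl3, Tfap2a and Bcl11a thus had no listed summit within 250 kb in any library. In each list taken alone this is the usual case, since the all-gene median distance, given next, is above 250 kb.

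Over the 8 genes the median distance to the nearest summit was 98.2 kb with Nkx2-1 deletion, 6668 kb with ectopic Sox2 and 1823 kb in wildtype. Over all protein-coding genes on chromosomes with a listed summit it was 400.4 kb, 4264 kb and 1853 kb in that order. The median of the 8 was thus shorter than that of all genes with Nkx2-1 deletion, longer with ectopic Sox2 and about equal in wildtype. Single genes went the other way: Grhl3 and Tfap2a lay farther than the all-gene median with Nkx2-1 deletion, and Grhl3, Pax9 and Sox15 lay closer than it with ectopic Sox2. These medians are descriptions of 8 genes, and of the ectopic Sox2 distances 1, that of Grhl3, lay within the range seen with Nkx2-1 deletion, 9.07 to 576 kb.

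**Figure D4:**
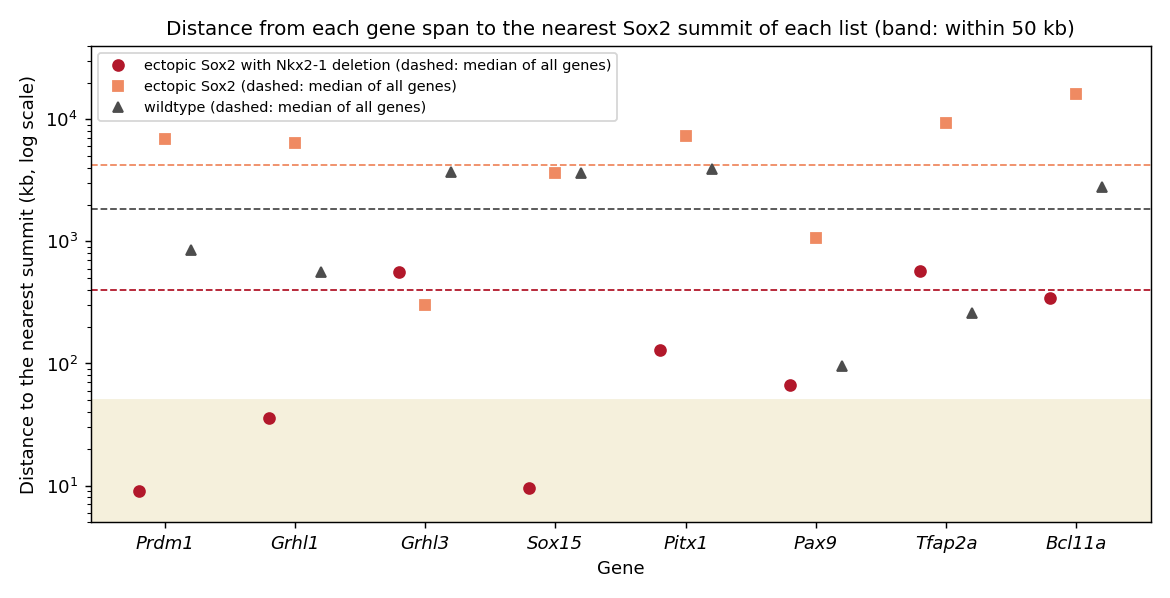
Distance from each of the 8 gene spans to the nearest Sox2 summit of each list in kb on a log scale, with dashed lines at the median of all protein-coding genes and the 50 kb window shaded. With Nkx2-1 deletion (circles) Prdm1, Sox15 and Grhl1 fall in the shaded band; with ectopic Sox2 (squares) and in wildtype (triangles) none does, and the closest summit of any list is a wildtype one for Tfap2a and an ectopic Sox2 one for Grhl3.

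A wider list of 36 other squamous epithelial transcription factors gives the setting. With Nkx2-1 deletion 7 of them (19.4%) had a summit within 50 kb, beside the 13.1% of all genes: Trp63, Klf5, Hes1, Foxq1, Ehf, Runx1 and Grhl2. By the largest −log10 q the leading 4 were Trp63 at 19.9, the master regulator of basal cells, Klf5 at 9.66, a factor of proliferating epithelium, Hes1 at 7.69, a Notch target repressor, and Foxq1 at 6.06, a forkhead factor of hair. With ectopic Sox2 1 of the 36 (2.78%, beside 1.53% of all genes) had a summit, Ovol2, a zinc-finger factor of epithelial identity, with 27 fragments (17.8 to 39.3) and a −log10 q of 9.24. In wildtype 3 (8.33%, beside 2.85% of all genes) had one, Sox21, Trp63 and Runx1, with −log10 q of 9.20, 2.09 and 1.92. The list was written with earlier results of these data known, and its counts are a description.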

How the data were processed

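The authors deposited 1 narrowPeak list per Sox2 ChIP library; the series has 9 libraries, and those of input and IgG were not analysed here. The submitters' processing notes name Bowtie2 2.2.9, SAMtools 1.4, MACS2 2.1.1, HOMER 4.8.3 and mm10. The sources used here do not state the control, the threshold or whether duplicates were filtered. Each deposited list gives −log10 p, −log10 q, a score and a fold (ratio of ChIP to local control) per summit. The score equals 10 times −log10 q cut to a whole number. Positions are printed counting from 1.

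ChIP fragments and control background were solved from fold and −log10 p (pseudocount 1, Poisson tail, whole fragments within 0.02). This gave 1 value for 99.5% of Nkx2-1 deleted, 98.3% of ectopic Sox2 and 99.1% of wildtype summits. The solver was first run on data simulated from the same formula, which cannot show whether the formula holds for these lists. Simulated control backgrounds were whole numbers or the genome-wide value, whereas some described summits have other backgrounds. Depth is the genome-wide background divided by the recovered scale, not a read total. Single-region ratios have exact conditional binomial intervals.

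Genes came from RefSeq GRCm38.p6. Overlap, at least 1 bp, was counted in pandas 2.3.3 with Python 3.11.15, numpy 2.4.6 and scipy 1.17.1, in place of bedtools. Sequences under summits could be shown only where a RefSeq promoter window covered them, since no genome sequence was used here. Named genes are the 8 listed ones, up to 4 of each other list by −log10 q, the genes nearest to or holding a described summit, and up to 3 genes most like Prdm1. The 8 genes and all lists were chosen with earlier results of these data known, and the distances to listed starts were chosen after seeing the data.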

Additional observations from a re-analysis of the deposited data

How the results depend on the processing

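The count of 3 of 8 genes near a summit with Nkx2-1 deletion dropped to 1, Prdm1, once summits below a −log10 q of 5 were removed, by nearest protein-coding gene (up to 250 kb), and by nearest gene of any kind; it was 2 with a 10 kb window, 4 with a 100 kb window, 3 without regions found in all 3 lists and 3 of 7 within 50 kb of a listed transcription start, a setting added after seeing the data. Against those settings the share of all protein-coding genes was 8.83%, 8.11%, 6.00%, 6.47%, 20.7%, 12.9% and 9.68%. The wildtype count of 0 became 1, Pax9, within 100 kb, and the ectopic Sox2 count was 0 under each setting run. At Prdm1 the 3 summits became 2 above that q, 1 with the 10 kb window, 4 with the 100 kb window and 5 by nearest protein-coding gene, of which 1 remained when lncRNA and other genes could be the nearest. With Nkx2-1 deletion 7 regions lay within 50 kb of, or nearest to, a listed gene. None was shared with another list when the overlap had to reach 50% of the region, or within 1 kb. The other lists are far shorter, at 229 and 552 summits against 2589, so most regions of this list have no counterpart. The Slc25a21 ratio was 1.12 with the control background subtracted. No paired analysis was possible because each condition has 1 library. Listed summits alone are seen here, so binding below each list's threshold is not.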

Other observations

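Of 17 other Prdm, Grhl, Sox, Pitx, Pax, AP-2 and Bcl11 family genes, 2 (11.8%) were within 50 kb of a summit of the Nkx2-1 deleted list, Grhl2 and Prdm2, beside 13.1% of all genes. The Prdm2 summit had 34 fragments (23.5 to 47.5) and lay 25.6 kb from the gene. None had one with ectopic Sox2 (1.53% of all genes), and in wildtype 1 (5.88%, beside 2.85% of all genes) had one, Pax1, with 16 fragments (9.15 to 26.0) at 31.0 kb.

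Counts for transcription factors of other cells are to be read beside the same all-gene shares. Of 12 lung factors, 2 (16.7%, beside 13.1%) had a summit with Nkx2-1 deletion. They were Foxa1 with 39 fragments (27.7 to 53.3) inside the gene and Foxp1 with 27 (17.8 to 39.3). None had one with ectopic Sox2 (1.53% of all genes) or in wildtype (2.85%). Of 8 immune factors, 1 (12.5%) had a summit with Nkx2-1 deletion, beside 13.1% of all genes, and 1 (12.5%) in wildtype, beside 2.85%. It was Tcf7, with 1 summit with Nkx2-1 deletion, 2 in wildtype and 0 with ectopic Sox2 (1.53% of all genes). Of 6 endothelial factors none had a summit with Nkx2-1 deletion, with ectopic Sox2 or in wildtype, beside 13.1%, 1.53% and 2.85% of all genes. Of the 64 promoter windows that overlapped a region of the Nkx2-1 deleted list, 57.8% held at least 1 of the 3 Sox motifs, beside 33.2% of all windows; this comparison was made after the values were seen and has no test.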
